A study of Mus musculus with 26 samples.

Results

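The mammary glands of QSi5 and CBA/CaH mice were compared on day 9 of lactation. The comparison took 6 of the 26 arrays of the study, the 3 lactation arrays of each strain by their titles, and 45037 of the 45101 probe sets, leaving out only the Affymetrix controls. The study measured whole inguinal mammary gland with Affymetrix arrays in QSi5 and CBA/CaH mice on pregnancy day 12 (5 arrays each), in both strains on lactation day 9 (3 arrays each), and on lactation day 9 in an Advanced Intercross Line of the same strains at its 14th generation (AIL, 10 arrays). QSi5 is an inbred strain known for large litters and fast-growing pups, and CBA/CaH is an older inbred strain without that selection. No group carried an engineered allele or received a treatment in the labels, and the age, parity and litter size of the animals are not given in the sources used here. The labels do not state that each array came from a separate animal, so the p-values measure the spread between samples. The standard error (SE) and p-value of a lactation difference draw that spread from all 16 parental arrays, pregnancy arrays included. A value here is a log2 expression level, so a difference of 1 is a factor of 2. The difference is always QSi5 minus CBA/CaH, and n = 3 arrays per strain.

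A lactating gland is mostly secretory epithelium, which makes caseins, whey proteins, lactose and milk fat, wrapped in contractile myoepithelial cells and set among fat cells, vessels and immune cells. When milk stays in the gland, the epithelium begins involution, and acute phase genes are among those known to rise early in that process. Acute phase proteins such as the serum amyloid A family are induced by inflammatory signals in liver and in several epithelia. Metallothioneins are small cysteine-rich proteins that bind zinc and copper, and their genes respond to metal, glucocorticoid and inflammatory signals. Genes of the major histocompatibility complex (MHC), which lie together on mouse chromosome 17, differ in sequence between inbred strains.

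The tissue label was checked first. Csn2 (beta-casein) was at 14.78 to 14.86 on all 6 arrays and Wap (whey acidic protein) at 15.06 to 15.13, where the scale ends (the maximum over all arrays was 15.13). At that height the arrays cannot separate the strains well, and their differences of -0.04 and -0.01 do not test whether the strains differ. CBA/CaH array medians were between 5.25 and 5.27, and those of QSi5 between 5.26 and 5.30. The 3' minus 5' value of the Gapdh controls, a measure of RNA and labelling quality, was between 1.12 and 2.02 in CBA/CaH and between 1.48 and 1.62 in QSi5. Among the lactation arrays, 1 of each strain stood apart. On CBA/CaH array 1 the median of the involution and acute phase list was 1.10 above the mean of the 6 arrays, against -0.12 and -0.18 on the other CBA/CaH arrays. On QSi5 array 2 the median of the B and plasma cell markers was 1.06 above that mean and that of the T and NK cell markers 0.84. The other QSi5 arrays had 0.12 and -0.28 for the B and plasma cell markers and -0.02 and -0.21 for the T and NK cell markers. Of the AIL arrays, all 10 had Gapdh values of 0.537 to 0.800, below every parental lactation array, so an AIL level beside a parental level is a description here and its part in any difference was not tested.

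Few genes were called between the strains, and most called differences were large, which the test favours with 3 arrays per strain. limma called 130 of 45037 probe sets (percent called, 0.289), 65 higher and 65 lower in QSi5, at an adjusted p under 0.05. The differences centred near 0, with a median of 0.01, and 2344 probe sets (5.20%) had an unadjusted p under 0.05. With 1 probe set taken for each of 18193 genes, 63 genes were called (0.346%), of which 29 were higher in QSi5 (0.159%) and 34 lower (0.187%). Of the 63, 60 differed at least 2-fold and 25 at least 4-fold. In all 63 the arrays of the strains did not overlap, as was so for 13.3% of all genes, called or not. On simulated data with the same design, 57% of differences of 1 log2 unit and 89% of differences of 2 were called, so smaller differences may be missed. The count of 130 fell to 86 without CBA/CaH array 2, to 83 without CBA/CaH array 3, to 83 without QSi5 array 1 and to 86 without QSi5 array 2.

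**Figure D1:**
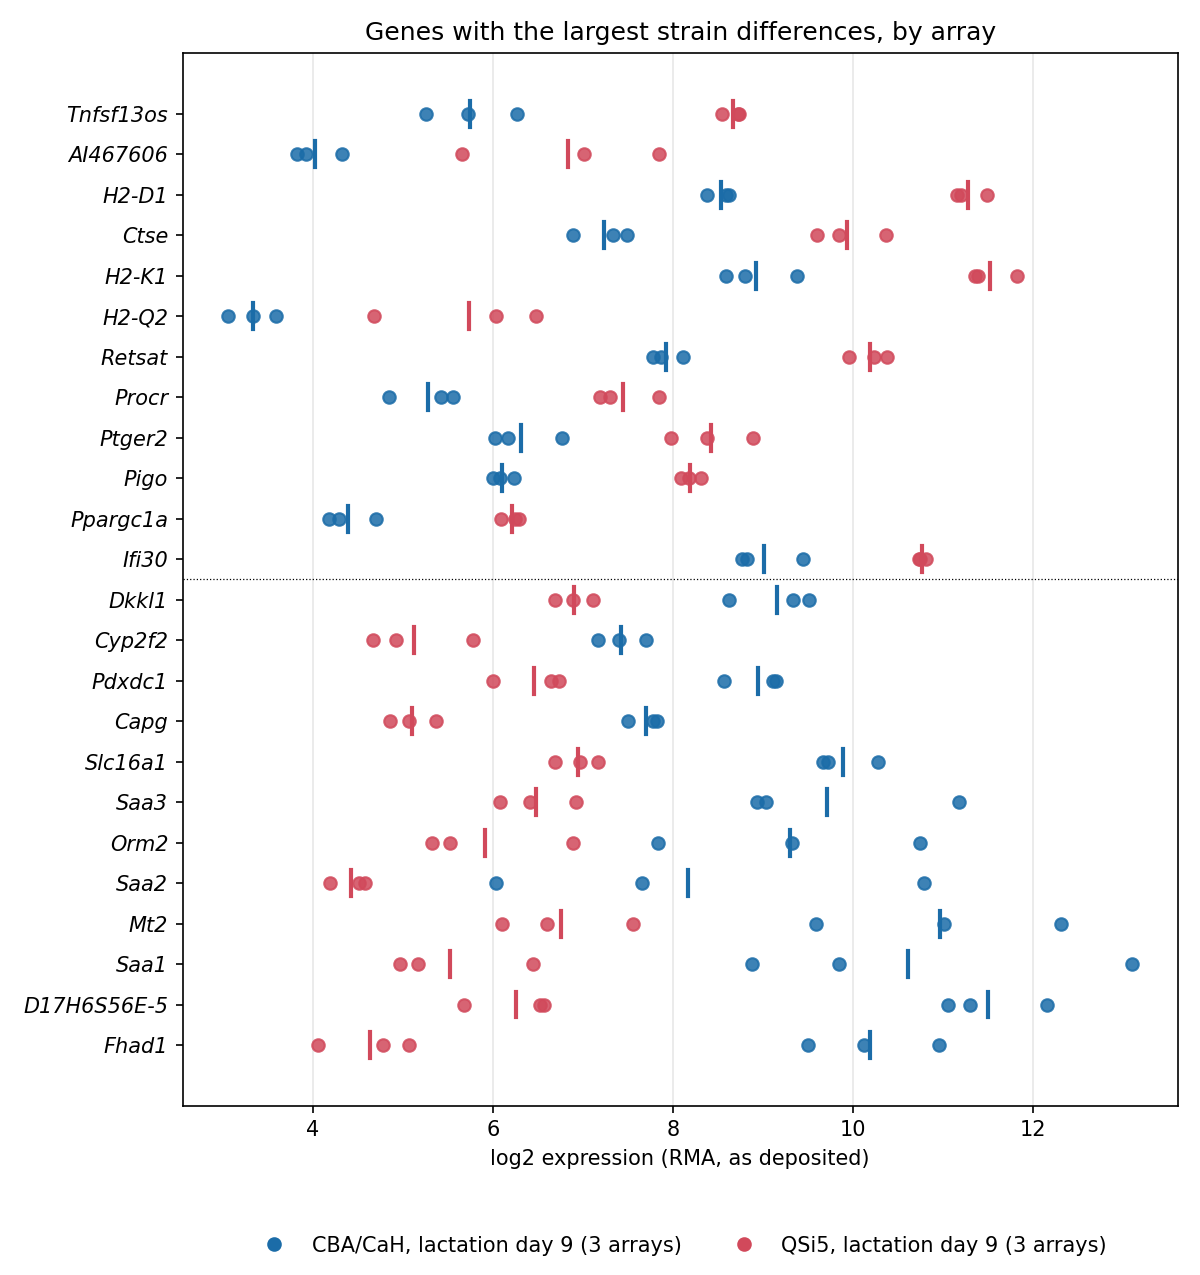
Log2 expression (x axis) of the 12 called genes with the largest difference in favour of QSi5 (above the dotted line) and the 12 with the largest in favour of CBA/CaH (below it), 1 row per gene. Points are the 3 arrays of each strain and vertical bars their means; the points of a gene never overlap between the strains, and Saa1, Saa2, Orm2 and Mt2 are spread widest, over the CBA/CaH arrays.

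The acute phase genes Saa1, Saa2, Saa3 and Orm2 were lower in QSi5. Of the 22 measured members of the involution and acute phase list, 0 were called higher and 4 lower, against 0.159% and 0.187% of all genes. In the list 5 differences were above 0, and the median was -0.41, against 0.00 over all 18193 genes, of which 50.8% were above 0. By array, the list median stood at 1.10, -0.12 and -0.18 in CBA/CaH and at -0.14, -0.34 and -0.21 in QSi5, relative to the mean of the compared arrays. The lean of the list as a whole thus rests mainly on CBA/CaH array 1. The serum amyloid A genes encode apolipoproteins that travel on high-density lipoprotein in the acute phase, and Orm2 encodes an alpha-1-acid glycoprotein of plasma.

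Saa1 was at 13.10, 8.88 and 9.85 on the CBA/CaH arrays and at 6.45, 5.16 and 4.97 on the QSi5 arrays. CBA/CaH array 1 was far above the rest, and the lowest CBA/CaH array was still above the highest QSi5 array. The difference was -5.08 (SE 0.84, adjusted p = 0.0108), a 33.9-fold lower level in QSi5. Without CBA/CaH array 1, the array on which the whole list was high, the difference was -3.83 (adjusted p = 0.0209). A second Saa1 probe set was called too, with a difference of -5.04. The call was lost without QSi5 array 2 (adjusted p = 0.0705), without QSi5 array 3 (adjusted p = 0.0764), and with all 26 arrays in the model (adjusted p = 0.177).

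Saa3, which is made locally in tissues including the mammary epithelium, was at 11.18, 9.04 and 8.93 in CBA/CaH and at 6.93, 6.08 and 6.42 in QSi5. Array 1 was again the highest of each strain. The difference was -3.24 (SE 0.48, adjusted p = 0.0042), and -2.51 without CBA/CaH array 1. The call was lost with all 26 arrays in the model (adjusted p = 0.111).

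Orm2 was at 10.75, 9.33 and 7.84 in CBA/CaH and at 6.89, 5.32 and 5.53 in QSi5. The lowest CBA/CaH array and the highest QSi5 array were less than 1 unit apart. The difference was -3.39 (SE 0.53, adjusted p = 0.0064), and -2.67 without CBA/CaH array 1. The call was lost without QSi5 array 2 (adjusted p = 0.0535), with only the 6 compared arrays in the model (adjusted p = 0.0682) and with all 26 (adjusted p = 0.405).

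Saa2 was at 10.80, 6.03 and 7.66 in CBA/CaH and at 4.58, 4.19 and 4.51 in QSi5. Its difference of -3.74 (SE 0.74, adjusted p = 0.0462) passed the threshold narrowly, and without CBA/CaH array 1 it was -2.42 (adjusted p = 0.0111). The call was lost without any of CBA/CaH array 3 or QSi5 arrays 1, 2 and 3, without any pregnancy CBA/CaH array and without any of pregnancy QSi5 arrays 1 to 3, with adjusted p from 0.0633 to 0.222. It was lost as well with only the 6 arrays (adjusted p = 0.217), all 26 arrays (0.340), the pregnancy arrays that stood apart left out (0.0886), equal array medians (0.0542) and the replicate block (0.0786).

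The other members of the list did not pass the test. Orm1, a second acid glycoprotein, was at 11.65, 11.48 and 11.06 in CBA/CaH and at 9.77, 9.17 and 9.02 in QSi5, a difference of -2.08 with an SE of 0.90 (adjusted p = 0.877). It was called with only the 6 compared arrays in the model (adjusted p = 0.0027). The SD of Orm1 was 0.31 and 0.40 in lactating CBA/CaH and QSi5, and 1.98 and 0.76 in the pregnant strains. Igfbp5, a binding protein of insulin-like growth factors that is known to rise in involution, was at 11.31 on CBA/CaH array 1 and at 7.12 and 8.10 on the other CBA/CaH arrays, against 6.81 to 7.06 in QSi5 (difference -1.87, adjusted p = 0.841). Several other genes were high on that same array. Cd14, the endotoxin co-receptor, was at 12.57 there, against 8.73 and 9.70 on the other CBA/CaH arrays and 8.87 to 9.17 in QSi5. Jun, an immediate early transcription factor, was at 7.50 there and at 4.28 to 4.75 on the other lactation arrays of both strains. The count of 4 members called lower became 1 without QSi5 array 2, 2 without QSi5 array 3 and 0 with all 26 arrays in the model.

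Mt2 and Mt1, the metallothionein genes expressed in most tissues, were lower in QSi5 as well. Mt2 was at 12.31, 9.59 and 11.01 in CBA/CaH and at 6.60, 6.10 and 7.56 in QSi5. The groups were 2 units apart at their nearest, and the difference was -4.22 (SE 0.57, adjusted p = 0.0019), an 18.6-fold lower level. Mt1 was at 13.95, 12.65 and 12.81 in CBA/CaH and at 11.21, 10.48 and 11.15 in QSi5, a difference of -2.19 (SE 0.33, adjusted p = 0.0047). Both were highest on CBA/CaH array 1, and without it the differences were -3.55 (adjusted p = 0.0080) and -1.78 (adjusted p = 0.0188). With the mean of its probe sets the Mt1 difference was -1.40 (adjusted p = 0.0383).

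The stretch of 250 bases before the start of Mt2 is shown because Mt2 and its neighbour Mt1 moved together and this window holds 3 matches to the metal response core. Those of Saa2 and Orm2 are shown because these acute phase genes moved together and each window holds a match to a C/EBP motif. Sequences are from RefSeq on GRCm38.p6, plus strand, 5′ to 3′, and the matches are in capitals.
Mt2, chr8:94172368-94172617: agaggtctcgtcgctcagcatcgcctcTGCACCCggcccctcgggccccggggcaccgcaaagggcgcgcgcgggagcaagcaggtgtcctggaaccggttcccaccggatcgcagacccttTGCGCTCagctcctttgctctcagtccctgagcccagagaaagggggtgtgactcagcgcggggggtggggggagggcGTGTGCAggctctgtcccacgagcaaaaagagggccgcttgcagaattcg
Saa2, chr7:46751583-46751832: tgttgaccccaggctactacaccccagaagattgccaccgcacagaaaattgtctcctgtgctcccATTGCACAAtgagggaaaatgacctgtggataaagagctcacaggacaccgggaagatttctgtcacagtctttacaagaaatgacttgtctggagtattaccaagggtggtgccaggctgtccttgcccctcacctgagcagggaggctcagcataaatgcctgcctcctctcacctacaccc
Orm2, chr4:63362199-63362448: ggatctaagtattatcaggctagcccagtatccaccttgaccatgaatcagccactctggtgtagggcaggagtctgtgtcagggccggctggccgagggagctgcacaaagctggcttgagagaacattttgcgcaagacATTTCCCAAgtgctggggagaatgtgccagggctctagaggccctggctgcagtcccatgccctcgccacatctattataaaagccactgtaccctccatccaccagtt

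Each motif was searched on both strands. The metal response core, TGCACNC or TGCGCNC, begins 223, 128 and 50 bases before the start of Mt2, and 21.4% of 32851 promoter windows of that length hold at least 1. The window of Mt1, not printed, holds 1 match, which begins 23 bases before the start. The C/EBP motif, TTNNGNAAT, was found 184 bases before the start of Saa2 and 109 before that of Orm2, and 10.2% of windows hold it. The window of Saa1, not printed, holds a match 183 bases before the start, and that of Saa3 holds none. The letters of a STAT motif, TTCNNNGAA, held by 7.02% of windows, are in none of the windows of Mt2, Saa2, Orm2, Saa1 and Saa3. A match describes the letters of the window and is not shown to be a bound site.

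**Figure D2:**
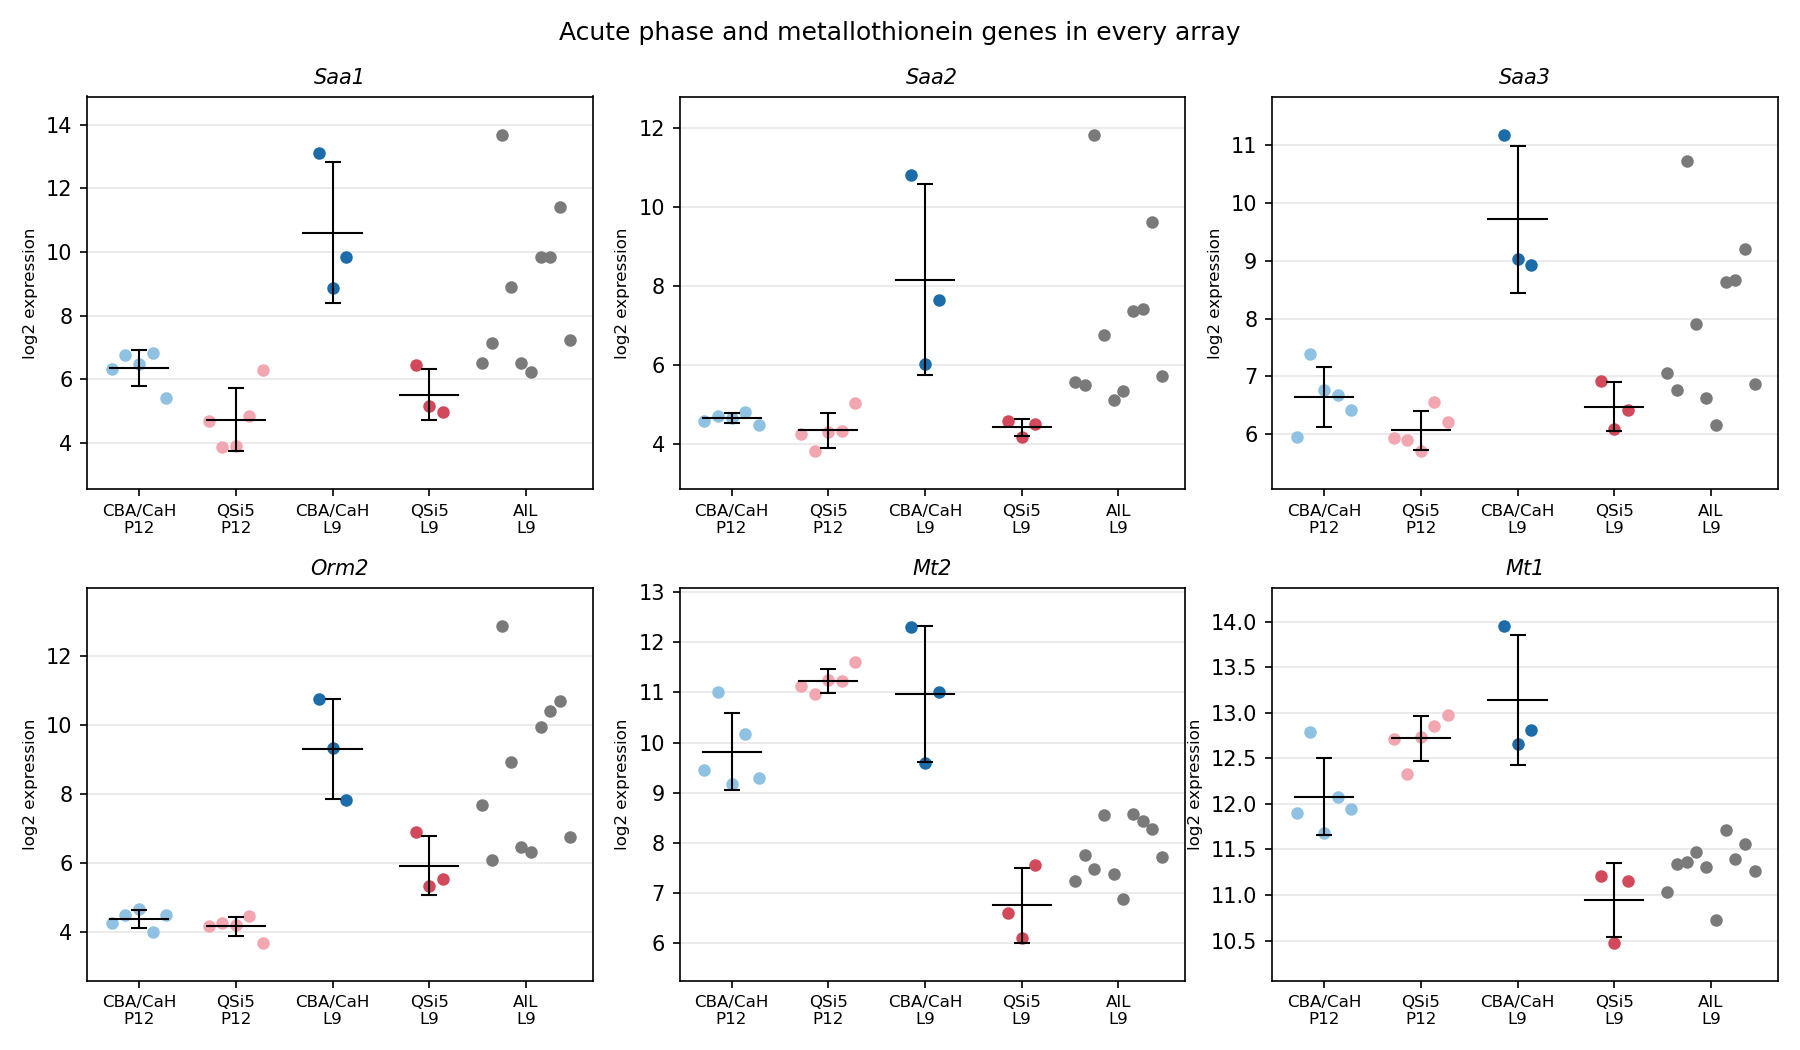
Log2 expression of 4 acute phase and 2 metallothionein genes in every array, by strain and stage (P12, pregnancy day 12; L9, lactation day 9), with the mean and SD of each parental group and no mean for the AIL arrays. The lactating CBA/CaH arrays are above the lactating QSi5 arrays in each panel, and Mt2 and Mt1 have the opposite order of strain means at pregnancy.

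The same genes were looked up in the other groups of the study. At pregnancy, Saa1 lay between 5.42 and 6.83 in CBA/CaH and between 3.88 and 6.31 in QSi5 (difference -1.63, adjusted p = 0.448). In lactating AIL mice Saa1 ran from 6.25 to 13.69, and the array with the highest value, AIL array 3, was the highest for Saa3 (10.72) and Orm2 (12.88) too. Mt2 behaved otherwise. Its 10 AIL arrays lay between 6.89 and 8.59, all nearer the QSi5 mean than the CBA/CaH mean, and the Mt1 levels of 10.73 to 11.72 were likewise all nearer QSi5.

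For Mt2 the strain order turned between the stages. The pregnant CBA/CaH arrays were at 9.45, 11.00, 9.18, 10.17 and 9.30 and the pregnant QSi5 arrays at 11.13, 10.96, 11.24, 11.23 and 11.62. The pregnancy difference was 1.41, not called (adjusted p = 0.221), and the lactation difference minus the pregnancy difference was -5.63 (SE 0.72, adjusted p = 0.0045). For Mt1 that contrast was -2.83 (SE 0.41, adjusted p = 0.0109), with pregnancy levels between 11.68 and 12.79 in CBA/CaH and between 12.32 and 12.98 in QSi5. The Mt1 contrast was not called with the replicate block (adjusted p = 0.0506) or with the mean of its probe sets (adjusted p = 0.0731).

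The pregnancy comparison, made on other arrays, is set beside the lactation comparison for every called gene. It called 492 probe sets (1.09%) and 222 genes (1.22%). Of the 130 probe sets called at lactation, 109 had the same sign at pregnancy and 55 were called in the same direction, which is 42.3% of the lactation calls and 11.2% of the pregnancy calls, and 0 were called in the opposite direction. Of the 63 genes, 54 had the same sign and 24 were called in the same direction. The share of equal signs over all probe sets or genes was not computed, so the sign counts have no background here. The 2 comparisons come from 1 model and share the spread estimate of each probe set, so their calls are not independent. The strain difference itself depended on stage for 47 probe sets (0.104%) and 18 genes (0.0989%), among them 10 of the 63. The 47 became 30 without lactation CBA/CaH array 2, 29 without CBA/CaH array 3, 25 without QSi5 array 1, 29 without pregnancy QSi5 array 2 and 84 without pregnancy QSi5 array 4. Pregnancy QSi5 array 4 had a Gapdh 3' minus 5' value of 6.50, against 0.890 to 2.86 on the other pregnancy arrays, and without it 894 probe sets were called at pregnancy.

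**Figure D3:**
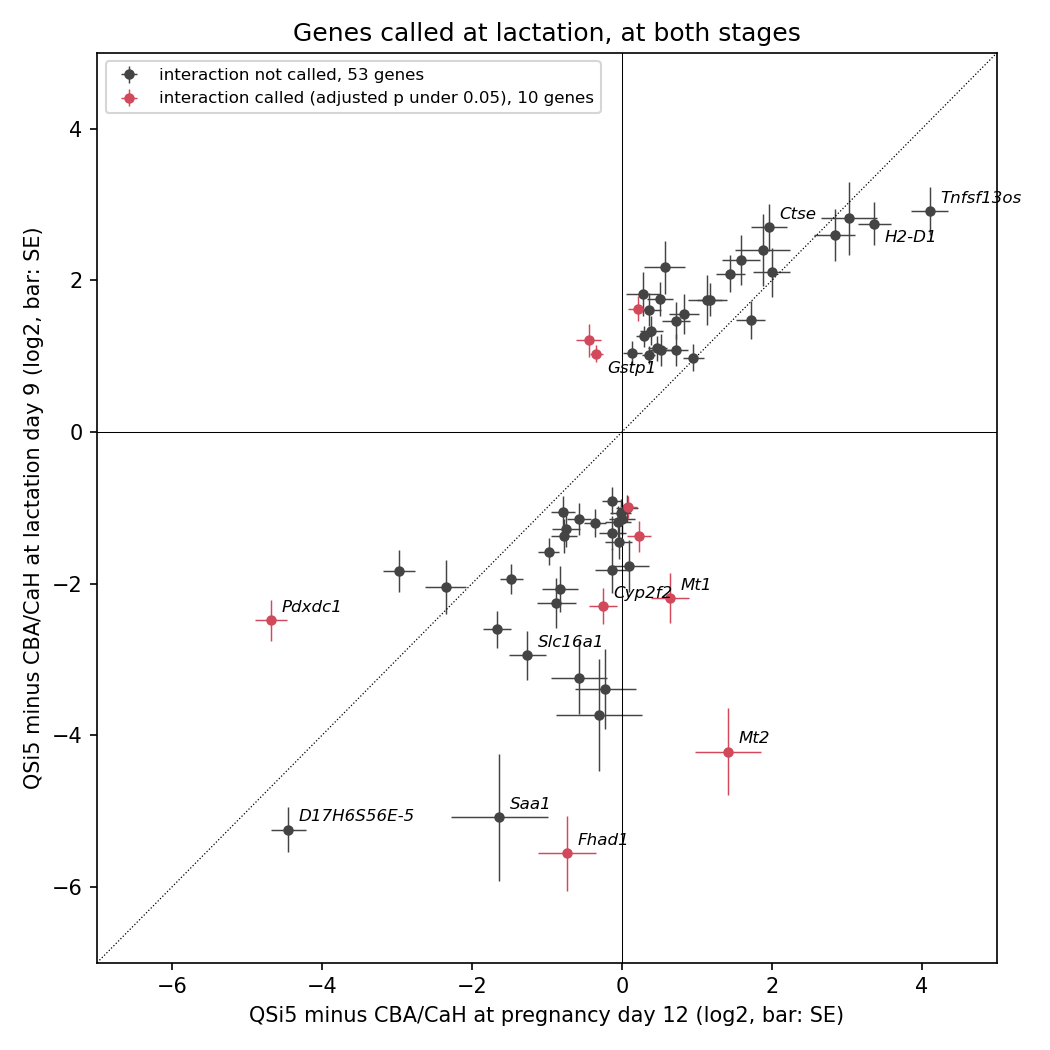
Strain difference (QSi5 minus CBA/CaH, log2) at lactation day 9 (y axis) against pregnancy day 12 (x axis) for the 63 genes called at lactation, with standard errors as bars. Red marks the 10 genes whose difference depended on stage by the test of the contrast itself; the dotted line marks equal differences. Genes near the dotted line, such as D17H6S56E-5 and H2-D1, differed at both stages, while Fhad1 and Mt2 lie far from it.

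Fhad1, which encodes a protein with a forkhead-associated domain, had the largest negative difference of the 63 genes. It was at 9.50, 10.13 and 10.95 in lactating CBA/CaH mice and at 5.07, 4.05 and 4.77 in lactating QSi5 mice, more than 4 units apart at the nearest arrays. The difference was -5.56 (SE 0.50, adjusted p = 2.9e-05), a 47.2-fold lower level. At pregnancy it was low in both strains, between 4.74 and 6.47 in CBA/CaH and between 3.82 and 5.53 in QSi5, and the difference was -0.74 (adjusted p = 0.663). The contrast between the stages was -4.82 (SE 0.63, adjusted p = 0.0052), and it was not called with all 26 arrays in the model (adjusted p = 0.346). The AIL arrays fell into separate ranges, with 4 arrays at 5.09 to 5.34 and 6 at 8.76 to 10.59.

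Pdxdc1, which encodes a protein with a pyridoxal-dependent decarboxylase domain, was at 9.15, 9.11 and 8.57 in CBA/CaH and at 6.64, 6.001 and 6.73 in QSi5 (difference -2.48, SE 0.27, adjusted p = 0.0002). A second Pdxdc1 probe set gave the opposite, at 6.37, 5.94 and 5.80 in CBA/CaH and 8.32, 7.84 and 8.53 in QSi5, a called difference of 2.19, and over the mean of all its probe sets the gene difference was 0.0985 (adjusted p = 1.00). No direction is therefore given for the gene. For the first probe set the pregnancy difference was larger, -4.68, and the contrast between the stages was 2.20 (SE 0.34, adjusted p = 0.0167). That contrast was not called without lactation CBA/CaH array 3 (adjusted p = 0.0753), QSi5 array 1 (0.0767) or QSi5 array 3 (0.0729), with all 26 arrays (0.313), after quantile normalization (0.154) or over the mean of the probe sets (0.984). The second probe set had a contrast of -0.21 that was not called (adjusted p = 0.996).

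Enzymes of glutathione and xenobiotic metabolism, which conjugate or oxidise foreign compounds, had a called gene in each direction among 34 measured, and a list median of 0.00. Over all genes 0.159% were called higher and 0.187% lower. Gstp1, a glutathione transferase, was at 10.76, 10.88 and 10.73 in CBA/CaH and at 11.89, 11.70 and 11.88 in QSi5. The arrays within each strain were close together, and the difference was 1.03 (SE 0.11, adjusted p = 0.0002). At pregnancy all 5 QSi5 arrays, at 11.17 to 11.34, were below all 5 CBA/CaH arrays, at 11.51 to 11.75, with a difference of -0.34 that was not called (adjusted p = 0.0910). The contrast between the stages, 1.37 (SE 0.14, adjusted p = 0.0006), was called in every alternative in which it was computed.

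Cyp2f2, a cytochrome P450, was at 7.40, 7.70 and 7.17 in lactating CBA/CaH mice and at 5.77, 4.67 and 4.93 in QSi5 (difference -2.30, SE 0.24, adjusted p = 0.0001). The call was lost with all 26 arrays in the model (adjusted p = 0.0813). The strains overlapped at pregnancy, between 7.65 and 8.41 in CBA/CaH and between 7.60 and 7.73 in QSi5 (difference -0.26, adjusted p = 0.807). The contrast between the stages was -2.04 (SE 0.31, adjusted p = 0.0114), and it missed the threshold without lactation CBA/CaH array 2 (adjusted p = 0.0538), without QSi5 array 3 (0.0532) and with all 26 arrays (0.397). Mgst1, a microsomal glutathione transferase, had a difference of 0.98 that was not called (adjusted p = 0.186), with arrays that did not overlap. It was called without pregnancy QSi5 array 4 (adjusted p = 0.0029), without the 3 pregnancy arrays that stood apart (0.0086), with array weights (0.0070) and with the Gapdh covariate (0.0039). The count of members called higher went from 1 to 2 without pregnancy QSi5 array 4.

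The pregnancy side of these contrasts carries the measured gap in Gapdh values between arrays. With the 3 pregnancy arrays that stood apart by Gapdh, muscle or brown fat markers left out, and with the Gapdh value as a covariate, the contrasts of Fhad1, Mt2, Mt1, Pdxdc1, Cyp2f2 and Gstp1 were each called. The part of RNA quality in these contrasts was not tested.

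MHC genes differed in both directions. Of 20 measured genes of the MHC and antigen processing list, 3 were called higher and 1 lower in QSi5, against 0.159% and 0.187% of all genes. The differences of 17 were above 0, against 50.8% of all genes, and the median was 0.35. H2-K1 and H2-D1 encode the classical class I chains that present peptides on nearly all nucleated cells, H2-Q2 encodes a class I chain of the Qa group, and H2-Eb1 encodes the beta chain of a class II molecule of antigen-presenting cells.

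H2-K1 was at 8.80, 8.59 and 9.38 in CBA/CaH and at 11.39, 11.83 and 11.35 in QSi5 (difference 2.60, SE 0.35, adjusted p = 0.0017). The call was lost with all 26 arrays in the model (adjusted p = 0.143). That model includes the AIL arrays, with an SD of 1.26 against 0.41 and 0.26 in lactating CBA/CaH and QSi5. H2-D1 was at 8.59, 8.38 and 8.62 in CBA/CaH and at 11.16, 11.48 and 11.20 in QSi5 (difference 2.75, SE 0.29, adjusted p = 0.0001). Of its 8 other probe sets, 2 were called in the same direction and 1 in the opposite, with a difference of -5.77 and levels of 9.94 to 10.50 in CBA/CaH against 4.35, 3.83 and 4.96 in QSi5. Over the mean of all its probe sets the H2-D1 difference was 0.70 and not called (adjusted p = 0.109). A probe set reads a short stretch of a transcript, and in these genes a difference in sequence and a difference in amount cannot be told apart.

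H2-Q2 was near the low end of the scale in CBA/CaH, at 3.05, 3.34 and 3.59, and at 6.03, 4.68 and 6.47 in QSi5 (difference 2.40, SE 0.48, adjusted p = 0.0462). Its call was lost without any of CBA/CaH arrays 1, 2 and 3, QSi5 arrays 1 and 3, any pregnancy CBA/CaH array or pregnancy QSi5 array 1, with adjusted p from 0.0654 to 0.251. It was also lost with all 26 arrays (adjusted p = 0.451), equal medians (0.0711), cyclic loess (0.0722) and the replicate block (0.113). H2-Eb1 was at 8.30, 8.27 and 8.18 in CBA/CaH and at 6.20, 6.97 and 6.08 in QSi5 (difference -1.84, SE 0.28, adjusted p = 0.0052). The other class II genes did not move with it: H2-Ab1 had a difference of 1.20 (adjusted p = 0.540) and H2-Aa of 0.74 (adjusted p = 1.00), and QSi5 array 2, high in B cell markers, had the highest level of each.

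**Figure D4:**
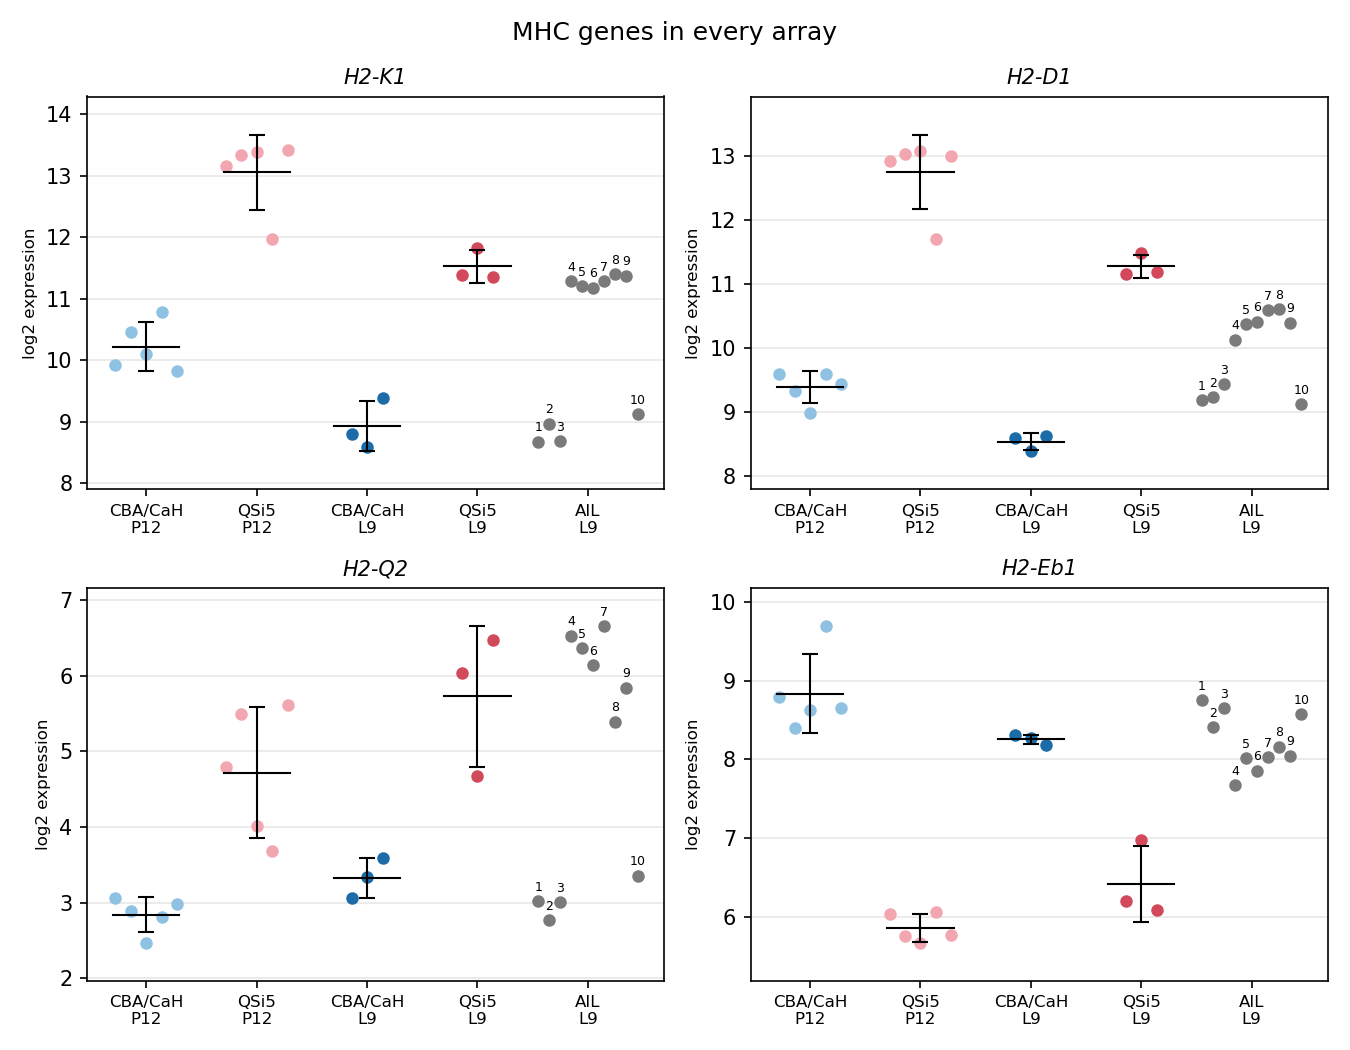
Log2 expression of 4 MHC genes in every array, with the mean and SD of each parental group (P12, pregnancy day 12; L9, lactation day 9); the small numbers are AIL array numbers. AIL arrays 1, 2, 3 and 10 lie with the CBA/CaH lactation arrays for H2-K1 and H2-Q2 and lowest for H2-D1, and for H2-Eb1 all 10 lie nearer CBA/CaH than QSi5.

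The AIL arrays split the same way for the class I genes. For H2-K1, AIL arrays 1, 2, 3 and 10 were at 8.67 to 9.12 and the other 6 at 11.17 to 11.40. For H2-Q2 the same 4 arrays were at 2.77 to 3.35 and the other 6 at 5.39 to 6.65, and for H2-D1 the same 4 were at 9.12 to 9.43 and the others at 10.13 to 10.61. H2-Eb1 did not separate into parental levels, since all 10 AIL arrays, at 7.67 to 8.75, were nearer CBA/CaH, although arrays 1, 2, 3 and 10 had the 4 highest values.

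D17H6S56E-5, a gene named after a DNA segment of chromosome 17 and placed by RefSeq beside Vars within the MHC, was at 12.15, 11.05 and 11.30 in CBA/CaH and at 5.68, 6.52 and 6.57 in QSi5. The difference of -5.25 (SE 0.30, adjusted p = 1.69e-07) was 38.0-fold, was present at pregnancy too (-4.45, adjusted p = 1.19e-08), and was matched by a second probe set (-6.10). All 10 AIL arrays were at 9.86 to 12.80, nearer CBA/CaH. Vars, a valyl-tRNA synthetase, was lower in QSi5 by a difference of -1.58 (SE 0.18, adjusted p = 0.0003), and Stk19, another neighbour, higher by 1.61 (SE 0.22, adjusted p = 0.0019). From H2-K1 to H2-Q2 in RefSeq order, 7 of 75 measured genes had a called probe set (9.33%), against 0.532% of the 18032 genes on the map. The stretch was set to begin and end at called genes, so its share is raised by that choice and is a description only. Outside that stretch, 23 of the 89 genes with any called probe set had another with at most 10 measured genes between them (25.8%), against 9.63% of the genes without a called probe set that had a called one as near. Among the 23 were Saa3, Saa1 and Saa2, Mt2 and Mt1, Capg and Retsat, and Fhad1 and Tmem51, the last pairs moving in opposite directions. Related neighbours such as the Saa genes can share probe sequence.

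Other genes much lower in QSi5 included a transporter and an actin regulator. Slc16a1, the monocarboxylate transporter that carries lactate, pyruvate and ketone bodies, was at 10.28, 9.66 and 9.73 in CBA/CaH and at 6.97, 6.69 and 7.17 in QSi5 (difference -2.95, SE 0.32, adjusted p = 0.0002). It was the called member of 23 measured transporters of the secretory cell, whose median was -0.06, and 0.346% of all genes were called. Slc16a1 was lower at pregnancy too (-1.26, adjusted p = 0.0171). Its second probe set was not called, and with the mean of its probe sets the difference was -1.56 (adjusted p = 0.0004). Slc7a5, a large neutral amino acid carrier, had a difference of -0.78 (adjusted p = 0.699) and Slc38a2, a small neutral amino acid carrier, of 0.74 (adjusted p = 0.578). Capg, which caps actin filaments, was at 7.82, 7.78 and 7.50 against 4.85, 5.37 and 5.07 (difference -2.61, SE 0.24), and the mean of its probe sets gave -1.71, still called. Dkkl1, a secreted relative of the Dickkopf proteins, was at 9.51, 9.33 and 8.63 against 6.89, 6.69 and 7.11 (difference -2.26, SE 0.33).

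Among genes higher in QSi5, Tnfsf13os, a transcript of the strand opposite Tnfsf13, was at 5.73, 5.26 and 6.26 in CBA/CaH and at 8.73, 8.73 and 8.54 in QSi5 (difference 2.92, SE 0.31, adjusted p = 0.0002). It was higher at pregnancy as well, by 4.11, and the lactation difference was 1.57 with the mean of its probe sets (adjusted p = 0.0004). Ctse, the endosomal protease cathepsin E, was at 6.88, 7.49 and 7.34 against 10.37, 9.60 and 9.85 in QSi5 (difference 2.70, SE 0.31). In the AIL it was at 6.22 or 6.32 on 3 arrays and at 8.86 to 10.32 on the other 7. The Ctse call was lost with all 26 arrays in the model (adjusted p = 0.342) and with the mean of its probe sets (adjusted p = 0.265). Retsat, the enzyme that saturates retinol, was at 7.78, 8.11 and 7.87 against 10.38, 9.96 and 10.23 (difference 2.27, SE 0.33), with 1.58 at pregnancy (adjusted p = 0.0031) and 1.47 at lactation over the mean of its probe sets (adjusted p = 0.0353).

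Ptger2, a receptor of prostaglandin E2, had differences of 2.10 at lactation (SE 0.32) and 2.00 at pregnancy, and Pigo, an enzyme of the membrane anchor glycosylphosphatidylinositol, of 2.09 (SE 0.24) and 1.45, each called at both stages. Over the mean of its probe sets the lactation difference of Pigo was 0.81 (adjusted p = 0.0377). Procr, the endothelial protein C receptor, which also marks a class of mammary stem cells, was at 4.85, 5.42 and 5.55 against 7.19, 7.30 and 7.85 (difference 2.17, SE 0.35, adjusted p = 0.0091). Its call was lost without CBA/CaH array 1 (adjusted p = 0.0674) and without QSi5 array 3 (adjusted p = 0.0719). Ifi30, a thiol reductase of antigen processing, was at 8.82, 9.44 and 8.76 against 10.75, 10.73 and 10.81 (difference 1.75, SE 0.22). AI467606, whose function is not established, had a difference of 2.82 (SE 0.48, adjusted p = 0.0138) that was lost without CBA/CaH array 2 (adjusted p = 0.0790), CBA/CaH array 3 (0.0795), QSi5 array 2 (0.0840) or QSi5 array 3 (0.0827), and with all 26 arrays (0.0663). It was 1.73 over the mean of its probe sets.

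Ppargc1a, a coactivator of mitochondrial and fatty acid oxidation genes, was at 4.29, 4.70 and 4.17 in CBA/CaH and at 6.09, 6.29 and 6.24 in QSi5 (difference 1.82, SE 0.28, adjusted p = 0.0067). It was the called member of 8 measured brown adipocyte genes (median 0.07), and 0.346% of all genes were called. The others named by the rule, Otop1 (difference 0.67) and Cox7a1 (0.54), overlapped between the strains, the fatty acid oxidation list had 0 of 15 called with a median of -0.03, and the mitochondrial respiration list 0 of 19 with a median of 0.13. The Ppargc1a call was lost without CBA/CaH array 3 (adjusted p = 0.0523) and with the mean of its 5 probe sets (adjusted p = 0.393), and all 10 AIL arrays, at 4.22 to 5.28, were nearer CBA/CaH.

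A further group of called genes, chosen after their values were seen, concerns secretion, amino acids and signalling. Pip, the prolactin-induced protein of secretory glands, was at 8.84, 10.71 and 9.69 against 7.60, 8.64 and 7.69 in QSi5 (difference -1.77, SE 0.34, adjusted p = 0.0370). Bcat2, which starts the breakdown of branched-chain amino acids, was lower by a difference of -2.07 (SE 0.30), and Rars, an arginyl-tRNA synthetase, of -1.38 (SE 0.21). Grb10, an adaptor that restrains insulin receptor signalling, had a difference of -1.83 (SE 0.30), Hif1a, the oxygen-regulated transcription factor, of -1.01 (SE 0.18), and Smad3, which carries transforming growth factor beta signals, of -1.06 (SE 0.18). Higher in QSi5 were Alad, an enzyme of haem synthesis (1.75, SE 0.22), Cyp7b1, an oxysterol hydroxylase (1.21, SE 0.22), and Sema4d, a semaphorin (1.26, SE 0.14).

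For 33 genes the calls came only from a probe set other than the one with the highest mean, so the gene as a whole is uncertain. Examples chosen after seeing the values are Phgdh, the first enzyme of serine synthesis, with a probe set at 10.77, 11.21 and 11.80 against 7.31, 7.09 and 7.56 (difference -3.94), Slco2b1, an organic anion transporter (-3.02), Ccl28, a chemokine of mucosal and mammary epithelium (-1.50), Kif5b, a kinesin (3.73), and Slc5a3, an inositol transporter (3.32). The largest difference of the whole comparison belonged to a probe set without a gene symbol here, at 3.60, 3.42 and 3.84 in CBA/CaH and 12.50, 12.37 and 12.46 in QSi5. Its difference was 8.83 at lactation (SE 0.31) and 8.32 at pregnancy, and on the AIL arrays it was at 3.55 on array 7 and at 11.61 to 12.64 on the other 9.

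No gene of the milk lists below was called. Only 0.346% of all genes were, so a count of 0 in a list of this size says little, here and in the lists that follow. Of the 33 lists, which held 547 distinct measured genes, 28 had no called member, and those lists included milk proteins (0 of 13, median -0.02), milk fat globule and droplet (0 of 11, median -0.16), lactose synthesis and glucose use (0 of 17, median 0.16) and prolactin and STAT5 signalling (0 of 16, median -0.01). In that order, the arrays of the strains did not overlap for 1, 4, 2 and 2 members, against 13.3% of all genes. Lalba, the regulator of lactose synthase, was at 14.41, 14.45 and 14.38 in CBA/CaH and at 14.74, 14.67 and 14.73 in QSi5, near the top of the scale (difference 0.30, SE 0.38). Its lactation SDs were 0.03 and 0.04 and its pregnancy SDs 0.50 and 0.74, in CBA/CaH and QSi5. Elf5, a transcription factor of the secretory lineage, had a difference of -0.10 and Stat5a, which carries the prolactin signal, of 0.29 (SE 0.41 and 0.38). Atp2b2, the pump that puts calcium into milk, had 0.69 and Slc2a1, the glucose transporter of the gland, 0.53, and for both CBA/CaH array 1 was the lowest of the 6 arrays. Muc1, a mucin of the fat globule membrane, was at 10.78, 10.62 and 10.88 against 11.74, 11.48 and 11.69 (difference 0.87, adjusted p = 0.270, and 0.0469 with only the 6 compared arrays), and Xdh, a scaffold of the fat globule coat, at 11.84 to 11.97 against 12.42 to 12.57 (difference 0.59).

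Of 31 genes of fatty acid and triglyceride synthesis, 0 were called, 23 differences were above 0, against 50.8% of all genes, and the median was 0.21. The arrays of 11 did not overlap, against 13.3% of all genes. Scd1, which makes monounsaturated fatty acids, was at 12.79, 13.62 and 12.81 in CBA/CaH and at 14.03, 13.87 and 14.01 in QSi5 (difference 0.89, SE 0.39, adjusted p = 0.877). Lpin1, a phosphatidate phosphatase, was at 8.75, 10.32 and 10.39 against 10.99, 10.95 and 10.75 (difference 1.07, adjusted p = 0.718). Fasn, the fatty acid synthase, was at 11.85 on CBA/CaH array 1, the lowest of the 6, and at 12.67 to 12.98 on the others (difference 0.19). The cholesterol synthesis list had 0 of 19 called and a median of -0.17, with Hmgcs1, an early enzyme of the pathway, at -0.95 (adjusted p = 0.616).

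The endoplasmic reticulum folding list, the chaperones that fold secreted proteins, had 0 of 23 called, 4 differences above 0, against 50.8% of all genes, and a median of -0.36. The arrays of 12 did not overlap, against 13.3% of all genes. Dnajb9, a co-chaperone, was at 9.11, 9.52 and 9.58 against 8.24, 7.81 and 8.60 in QSi5 (difference -1.19, SE 0.26, adjusted p = 0.0901). It was called with array weights (adjusted p = 0.0269), quantile normalization (0.0283), cyclic loess (0.0268) and the Gapdh covariate (0.0469), and without pregnancy QSi5 array 5 (0.0464). Creld2, a disulphide isomerase, was at 8.28, 7.48 and 7.55 against 6.88, 6.32 and 7.14 (difference -0.99, adjusted p = 0.411). Of the cell cycle list 0 of 28 were called, with a median of 0.29. Cdt1, which licenses replication origins, was at 6.13, 6.13 and 6.14 in CBA/CaH and at 6.81, 7.35 and 7.16 in QSi5 (difference 0.98, adjusted p = 0.469, and 0.0446 with only the 6 compared arrays).

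**Figure D5:**
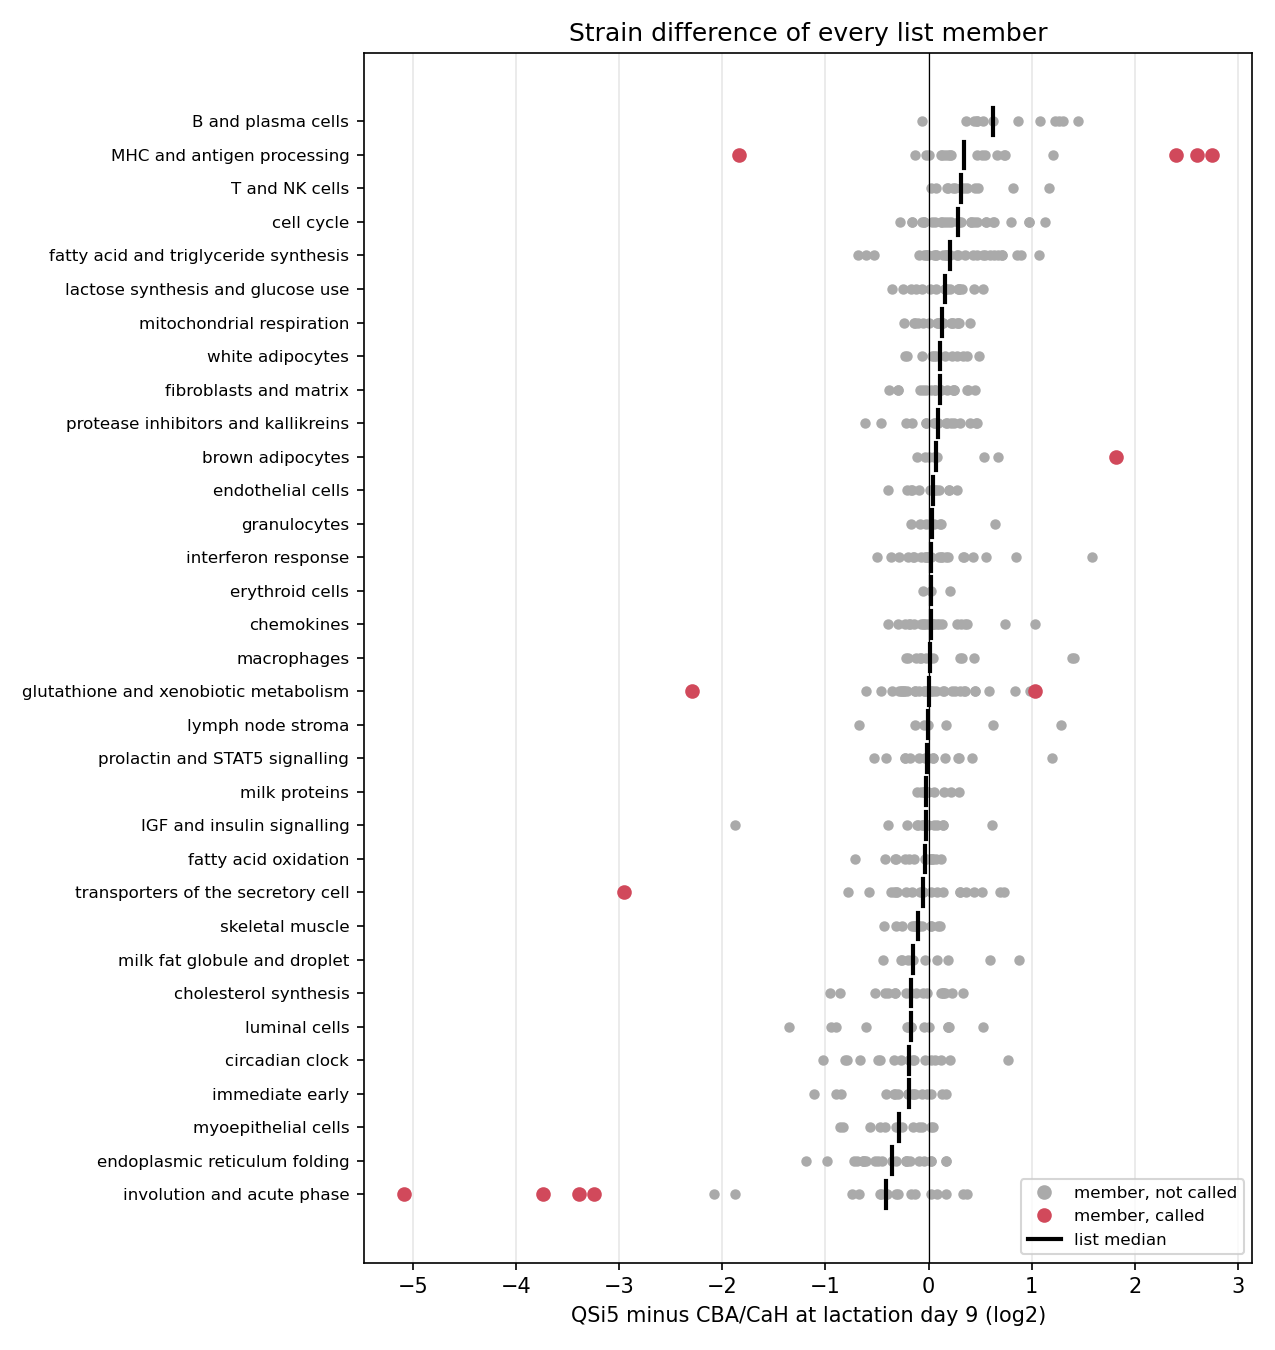
Strain difference at lactation day 9 (QSi5 minus CBA/CaH, log2, x axis) of every measured member of the 33 gene lists, sorted by list median (black bar); grey points are members that were not called and red points called members. The called members lie in 5 lists, and the lowest median is that of the involution and acute phase list.

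Markers of the cell types in the gland gave no called gene except Ppargc1a. In whole gland RNA, fewer cells of a type and less RNA per cell cannot be told apart. Krt8, a luminal keratin, was at 11.15, 10.20 and 10.33 in CBA/CaH and at 9.69, 9.35 and 9.94 in QSi5 (difference -0.90, adjusted p = 0.134), and Krt14, a myoepithelial keratin, at 7.93, 7.19 and 7.40 against 6.70, 6.10 and 7.14 (difference -0.86, adjusted p = 0.357). The list medians were -0.17 over 14 luminal and -0.28 over 12 myoepithelial markers, and CBA/CaH array 1 was the highest array for Krt8 and Krt14. Esr1, the oestrogen receptor of luminal cells, had a difference of 0.52 (adjusted p = 0.950), and Adipoq, the adiponectin of fat cells, of 0.05 with an SE of 0.80. Fibroblast, endothelial and white fat lists had medians of 0.11, 0.04 and 0.11.

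B and T cell markers leaned towards QSi5 without a called gene, and QSi5 array 2 was the highest array for many of them. The B and plasma cell list had 12 of 13 differences above 0 and a median of 0.62, and the T and NK cell list 13 of 13 and a median of 0.31, against 50.8% above 0 over all genes. Markers of a cell type vary together, and the lean came mostly from QSi5 array 2. By array, the QSi5 list medians were 0.12, 1.06 and -0.28 for B and plasma cells and -0.02, 0.84 and -0.21 for T and NK cells. Those of CBA/CaH ran from -0.39 to -0.27 and from -0.25 to -0.07. Macrophage and granulocyte lists had no such lean, with 7 of 13 and 5 of 8 differences above 0 and medians of 0.01 and 0.04. Ms4a1, the B cell antigen CD20, was at 8.04 on QSi5 array 2 and at 4.06 to 4.51 on the other 5 arrays. Cd3d, a chain of the T cell receptor complex, was at 7.78 there and at 4.66 to 5.80 elsewhere, and Lyz2, a lysozyme of macrophages and neutrophils, at 10.40 there and 6.97 to 8.15 elsewhere. Jchain, which joins secreted immunoglobulin A, had a wide spread in CBA/CaH, at 10.91, 8.91 and 8.42, against 11.16, 10.20 and 10.56 in QSi5 (difference 1.22, SE 0.92). C1qa, a complement gene of macrophages, was at 8.24, 8.66 and 7.80 against 9.72, 9.35 and 9.81 (difference 1.39, adjusted p = 0.469, and 0.0325 with only the 6 compared arrays). Iigp1, an interferon-induced GTPase, was at 9.06, 9.20 and 9.31 against 10.86, 10.48 and 10.97 (difference 1.58, adjusted p = 0.219). It was called with only the 6 compared arrays (adjusted p = 0.0024), array weights (0.0326), the replicate block (0.0444), the mean of its probe sets (0.0370) and without pregnancy QSi5 array 5 (0.0492). The interferon response list as a whole had 0 of 24 called and a median of 0.02.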

How the data were processed

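Deposited values were log2 expression levels per probe set of the Affymetrix Mouse Genome 430 2 array, which per the submitters' processing notes the authors obtained with RMA, a method that corrects background, equalises the distributions of the arrays and merges the probes of a set. The version of the software, the chip definition and whether all 26 arrays were processed together are not given in the sources used here. The log2 values were used as deposited, and ran from 2.34 to 15.1. The number of arrays limits the precision.

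By an annotation table of the array, 34945 probe sets have 1 gene symbol, while 932 have several and 9160 have none. For each gene the probe set of highest average level in the 26 arrays stands for it. A model with a mean for each of the 4 parental groups (16 arrays) was fitted in R 4.3.3 by lmFit and eBayes of limma 3.58.1, with contrasts for strain at lactation, strain at pregnancy and their difference. P-values are two-sided and adjusted by Benjamini-Hochberg over 45037 probe sets, and a call is an adjusted p under 0.05. The model was tested on simulated data, with 7 false calls. Figures were drawn with matplotlib.

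Named genes were the 12 highest and 12 lowest called genes whose arrays did not overlap, up to 4 called and 2 other members of each described list, a fixed set of mammary genes, and the 5 called genes with the largest contrast between stages. Gstp1 and other genes said to be so were chosen by list or after seeing values. The members and the gene lists were chosen with earlier results of these data known, so lists are described by counts and medians without a test. Of 611 list members, 554 were measured, and the others were not analysed here. Promoter windows and gene order came from RefSeq (GRCm38.p6). The array files name no genome build, so no gene coordinates are given. Alternatives were other sets of arrays, a variance trend, array weights, a filter on mean level (at least 5), quantile normalization, equal medians, cyclic loess, the Gapdh covariate, the replicate block, the mean of probe sets, and each array left out in turn. Leaving out single pregnancy arrays was added after seeing the data.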

Additional observations from a re-analysis of the deposited data

Results flagged for a closer look

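In the main model the strain difference depended on stage, by the test of the difference itself, for the representative probe sets of 6 named genes. The lactation difference minus the pregnancy difference was -4.82 for Fhad1, -5.63 for Mt2, -2.83 for Mt1, -2.04 for Cyp2f2, 2.2 for Pdxdc1 and 1.37 for Gstp1, with adjusted p between 0.0006 and 0.0167. The contrasts of Fhad1, Mt1, Cyp2f2 and Pdxdc1 were each not called in at least 1 alternative. A second called Pdxdc1 probe set had a contrast of -0.21, not called.

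Single AIL arrays lay far from the other 9 by Dixon's criterion, which chance meets in about 1 of 20 groups. AIL levels of many genes were at hand, so some such arrays would arise by chance. D17H6S56E-5 was at 12.8 on AIL array 3, Pdxdc1 at 5.68 on AIL array 4 and Retsat at 8.62 on AIL array 4. These are not the only such genes. Mylpf was at 9.44 on AIL array 1 and at 5.00 to 5.82 on the other 9. Lalba was at 13.87 on AIL array 9 and at 14.52 to 14.69 on the others. AIL array 3 was also the array with the highest Saa1, Saa3 and Orm2 levels.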

How the results depend on the processing

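All 130 probe sets called at lactation kept their sign in every alternative that tested the probe sets themselves. For many alternatives this was fixed in advance. The difference used the same group means with 6 or 26 arrays, the variance trend, the filter, the replicate block or pregnancy arrays left out. The arrays of the strains did not overlap for these probe sets, so leaving out a single lactation array could not turn a sign. Array weights could not turn a sign either, because a weighted mean stays within the range of its arrays. Equal medians shifted the lactation arrays too little, with medians of 5.25 to 5.30 against a smallest called difference of 0.60. Only quantile normalization, cyclic loess and the Gapdh covariate could have turned a sign. The count of calls was 227 (111 higher and 116 lower in QSi5) with array weights, 218 (111 and 107) after quantile normalization and 216 (100 and 116) with the Gapdh covariate; these held 130, 126 and 130 of the 130. It was 185 with only the 6 compared arrays (108 of the 130) and 104 with all 26 arrays (76 of the 130). With single arrays left out it ran from 83 to 179, with 37 to 89 higher and 39 to 90 lower. The pregnancy count of 492 was 893 with all 26 arrays, 1579 with array weights, 300 with the filter on mean level, 928 with the Gapdh covariate and 372 to 894 with single arrays left out. The 47 probe sets whose difference depended on stage became 79 with all 26 arrays, 80 without the pregnancy arrays that stood apart, 152 with array weights, 84 with the Gapdh covariate and 25 to 84 with single arrays left out. The 55 shared calls became 101 with array weights, 85 with the Gapdh covariate and 37 to 77 with single arrays left out. The causes were not tested.

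The deviations of same-numbered lactation arrays of the strains had correlations of -0.08, -0.12 and -0.08. Pairs with different numbers ran from -0.0034 to 0.092. With 3 arrays per strain these values cannot decide whether the numbers pair the samples. With the replicate block 99 probe sets were called, 91 of them among the 130. The Pdxdc1 difference turned to 0.0985 with the mean of its probe sets, which moved in opposite directions. Of 27 called named genes, 14 were called in every alternative that tested them, and of 75 named genes not called, 10 were called in at least 1.

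The 3 arrays per strain limit small differences, and milk genes near the top of the scale cannot be compared.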
